A study of Mus musculus with 2 samples.

Results

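Type 2 alveolar epithelial cells were read from 2 droplet single-cell RNA libraries of mouse lung. They were chosen by measured UMI counts, as barcodes with at least 200 detected genes, at most 10% mitochondrial UMIs and at least 3 UMIs summed over Slc34a2, Lamp3 and Etv5. They were further limited to at most 1 UMI of Cldn5 and Cdh5 (endothelial), at most 1 of Col1a2 and Col3a1 (stromal), none of Ptprc (leukocyte), at most 1 of Rtkn2 and Scnn1g (type 1 alveolar) and at most 4 of Cyp2f2 (airway). A UMI is a tag that marks 1 captured transcript molecule. This left 763 cells, 4.90% of the 15578 kept barcodes and drawn from 19593 barcodes in all. The choice rests on measured values, so the levels of these 11 genes and of mitochondrial genes describe the choice and are not findings.

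Of the 763 cells, 394 came from the 1 library labelled p47phox-KI (KI) and 369 from the 1 library labelled wild type (WT). Both libraries were made from lungs of strain C57BL/6 labelled with acute lung injury, and the series sets KI beside WT. Per the labels' protocols, perfused lungs were digested with collagenase, erythrocytes were lysed, and cells were stained for viability and for CD45.2, a leukocyte antigen, before sorting and 3' library preparation. The labels used here do not give the sort gate, the agent or time of injury, the age, sex or number of animals, or how p47phox was modified. With 1 library per genotype there is no replicate check, so no test is given. Intervals and limits cover counting error only.

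Type 2 cells are the cuboidal cells of the alveolus. They make pulmonary surfactant, a film of lipid and surfactant proteins stored in lamellar bodies, and they secrete defence proteins. After injury they act as progenitors of the flat type 1 cells that carry gas exchange, and cells on that path are known for keratins such as Krt8. p47phox, encoded by Ncf1, is the organiser subunit of the phagocyte NADPH oxidase, which makes superoxide. Cells answer oxidants through the transcription factor NRF2 (Nfe2l2), whose targets supply glutathione and thioredoxin.

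The cells carried the markers of the name. Sftpc, surfactant protein C, was the most abundant transcript, with 177034 CPM in KI and 189138 CPM in WT cells (counts per 1000000 UMIs of these cells), and a Sftpc UMI was found in 100% of cells of each library. Over single cells the 10th, 50th and 90th percentiles of Sftpc were 80890, 190000 and 241600 CPM in KI and 109900, 193100 and 239800 CPM in WT. Cxcl15, a lung chemokine, had 5805 CPM in KI and 6723 CPM in WT, and Napsa, a protease that processes surfactant proteins, had 2494 and 2757 CPM. Cxcl15 was found in 98.7% of KI and 99.5% of WT cells and Napsa in 99.7% of each. Lyz1, a lysozyme, stood apart from the other markers, with 2168 and 2640 CPM but a UMI in only 51.0% of KI and 46.1% of WT cells. Of the genes the choice used, Slc34a2, the phosphate carrier of type 2 cells, had 3190 and 2922 CPM, Lamp3, of lamellar bodies, 707 and 853 CPM, and Etv5 222 and 202 CPM.

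**Figure D1:**
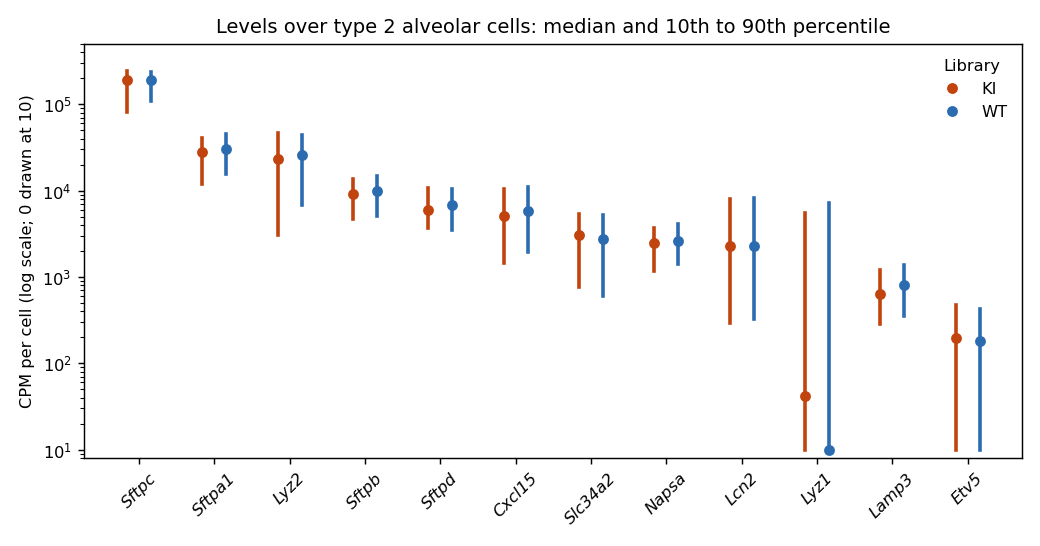
CPM per cell (log axis, 0 drawn at 10) of 12 type 2 genes in KI (red) and WT (blue) cells; points are medians and lines run from the 10th to the 90th percentile over 394 KI and 369 WT cells. Sftpc lies highest with nearly equal medians of 190000 and 193100 CPM, and the Lyz1 line spans from 0 to 5476 CPM in KI and to 7149 CPM in WT.

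Endothelial cells, which should lack these genes, give the level that free RNA can reach. Gated endothelial cells (at least 3 UMIs of Cldn5 and Cdh5) carried a Sftpc UMI in 87.8% of KI and 78.8% of WT cells, with medians of 4081 and 3658 UMIs per cell. Type 2 cells had medians of 14245 and 12919 UMIs. That gate sets no limit on type 2 genes, so mixed barcodes are among these cells. Their shares were 9.44% and 7.02% for Cxcl15, 4.71% and 3.66% for Napsa and 4.33% and 2.35% for Lyz1. A Sftpc UMI alone therefore did not separate the kinds of cell, while the shares of Cxcl15 and Napsa in type 2 cells stood far above this background.

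Markers of other cells are given here as sums, and genes that the choice of cells limits are low by that choice. Without Cldn5 and Cdh5, the other 14 endothelial markers summed to 283 CPM in KI and 303 CPM in WT type 2 cells, against 18729 and 19845 CPM in gated endothelial cells. Epas1 gave 184 and 206 CPM of these sums, Pecam1 21.5 and 23.2 CPM and Ramp2 15.7 and 10.3 CPM. Without Rtkn2 and Scnn1g, the other 14 type 1 markers summed to 2830 and 2903 CPM, against 44754 and 42579 CPM in gated type 1 cells. Ager, the receptor that marks type 1 cells, had 859 and 865 CPM in type 2 cells. Ptprc is 0 by the choice, and of the macrophage markers C1qa, C1qb, C1qc, Marco, Mrc1, Adgre1, Fcgr3 and Ear2 were at 0 in both libraries. Of 13 macrophage markers 2 reached 20 UMIs, and the list summed to 52.0 CPM in KI and 45.9 CPM in WT. Of the neutrophil markers, Csf3r, Ly6g and Trem1 were at 0 in both. Of 11 neutrophil markers 3 reached 20 UMIs, among them Hdc, and the list summed to 77.6 and 87.9 CPM. The 15 fibroblast markers, among them the limited Col1a2 and Col3a1, summed to 737 and 710 CPM, against 49409 and 49172 CPM in gated fibroblasts. Of 12 leukocyte markers 3 reached 20 UMIs, with the list summing to 122.5 and 139 CPM, against 8646 and 12443 CPM in gated leukocytes. Airway secretory markers summed to 1974 CPM in KI and 3131 CPM in WT, through Cbr2, with 1488 and 2116 CPM, and through Scgb1a1. Haemoglobin and other erythroid markers summed to 12.5 CPM in KI and 1.24 CPM in WT. The part of airway and erythroid RNA in the ratios below was not tested.

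The libraries held 9120 KI and 10473 WT barcodes, with 43445797 and 43376713 UMIs in all, of which 7161 and 8417 barcodes were kept. Type 2 cells were deeper than the other kept cells, which had medians of 3722 and 3300.5 UMIs. They held 5618386 KI and 4837376 WT UMIs, 14.9% and 12.6% of the UMIs of kept cells. The 10th to 90th percentile of UMIs per cell ran from 6263 to 21197 in KI and from 7078 to 19592 in WT. Median genes per cell were 3249 and 2996, and median mitochondrial shares 5.42% and 5.87%. The libraries share 30 barcode sequences, among them 3 KI and 2 WT type 2 cells, and 1 sequence marks a type 2 cell in both.

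Type 2 cells made up 5.50% of kept KI barcodes [95% Clopper-Pearson interval 4.99, 6.06] and 4.38% of kept WT barcodes [3.96, 4.84], a log2 ratio of 0.33 [95% counting interval 0.12, 0.54]. The sort gate and the depth can set these shares, and their part was not tested. The ratio was 0.59 when cells had at least 500 genes and at most 5% mitochondrial UMIs, which left 166 KI and 129 WT cells. The limits on other markers removed 163 KI and 143 WT barcodes with 3 or more UMIs of the type 2 genes. The removed barcodes had median depths of 16101 and 14970 UMIs and median Sftpc levels of 121250 and 153740 CPM. At the threshold itself, 6 KI and 5 WT cells had a sum of exactly 3, with median Sftpc levels of 12751 and 131068 CPM. Just outside, 9 KI and 7 WT barcodes had a sum of 2 and median Sftpc levels of 8578 and 1344 CPM. The median sum of all members was 55 in KI and 50 in WT, so few lay near the threshold.

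Ncf1 transcript (ENSMUSG00000015950, chromosome 5, 134220053 to 134229625, minus strand, GRCm38) was scarce in type 2 cells. It had 49 UMIs in KI and 27 in WT (8.72 and 5.58 CPM), with a UMI in 9.14% and 6.78% of cells. The log2 ratio was 0.63 [−0.06, 1.38], and it was −0.75 when each cell was thinned to 2000 UMIs, so no direction is given. Of the 16 genes of NADPH oxidases and their partners, 5 had at least 20 UMIs. Cyba, the membrane subunit p22phox, had 169 and 157 CPM, and Rac1, the small GTPase, 169 and 168 CPM. Noxo1, the organiser subunit of another oxidase, had 42 and 33 UMIs. Cybb, the catalytic subunit of the phagocyte oxidase, had 3 UMIs in KI and 1 in WT. The libraries read transcripts close to their 3' ends, and where the gene was modified is not given, so these values do not check the genotype.

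Most transcripts of type 2 cells had nearly equal levels in KI and WT. Of 31053 listed genes, 2410 reached 50 CPM and a UMI in 10% of cells in either library, and their median log2 ratio was 0.02. Of these, 3 were more than 2-fold higher in KI (0.124%) and 6 more than 2-fold lower (0.249%). The 3 higher genes were Chd9, S100a6 and Retnla. The 6 lower genes were Scgb1a1, Hist1h1c, Rhou, Srxn1, Osgin1 and the unnamed gene model Gm47283. At smaller ratios, 3.15% of the 2410 genes lay above a log2 of 0.5 and 2.32% below −0.5. Malat1, an abundant nuclear RNA, had 27641 CPM in KI and 22906 CPM in WT (log2 0.27).

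**Figure D2:**
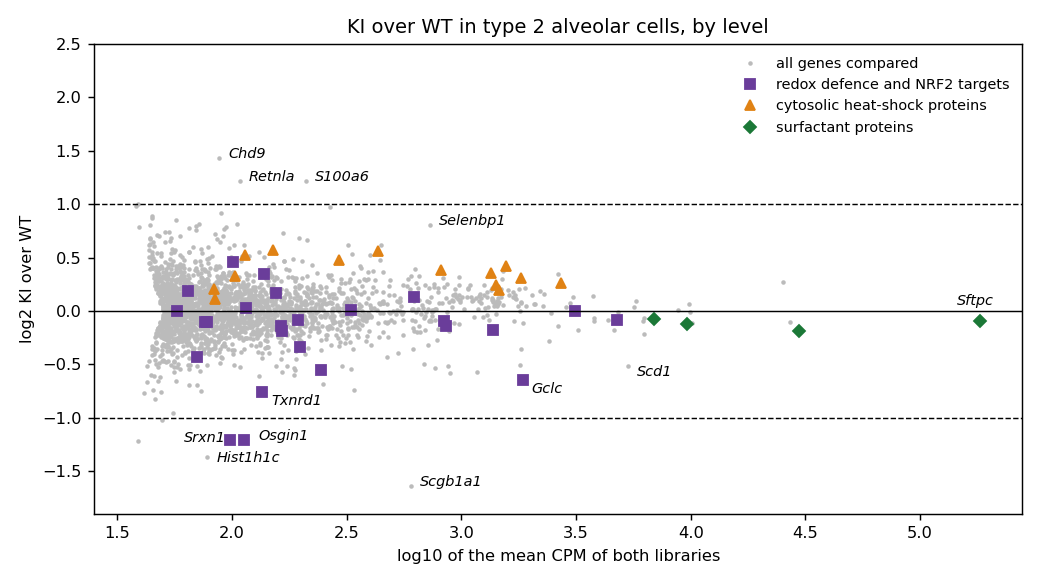
Log2 ratio of KI over WT (vertical) against the log10 of the mean CPM of both libraries (horizontal) for 2410 genes of type 2 cells; dashed lines mark 2-fold. Redox genes (squares) reach down to −1.21 for Srxn1 and Osgin1, heat-shock genes (triangles) lie above 0 and the 4 surfactant proteins (diamonds) lie just below it.

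Chd9, a chromatin remodeller, had the highest ratio. Its level was 128 CPM in KI (718 UMIs) and 47.3 CPM in WT (229 UMIs), a log2 ratio of 1.43 [1.22, 1.65]. A Chd9 UMI was found in 65.5% of KI and 40.9% of WT cells, and at an equal depth of 2000 UMIs in 17.6% and 6.56%. Retnla, a secreted resistin-like protein, had 849 KI and 315 WT UMIs (log2 1.21) in nearly the same share of cells, 17.0% and 17.3%. A single KI cell held 201 of these UMIs, against a maximum of 44 in a WT cell, so few cells set the Retnla ratio. It was 0.14 without the limits on other markers. S100a6 (log2 1.22) and Scgb1a1 (log2 −1.64) were more than 20 times lower than in another gated kind of cell, a level that free RNA can reach. S100a6 was uneven across type 2 cells, with up to 154 UMIs in a KI cell and 39 in a WT cell. After thinning to 2000 UMIs, the 39 KI and 37 WT cells with most S100a6 held 84.8% and 85.5% of its UMIs. The part of free RNA in the S100a6 ratio was not tested. Scgb1a1, the club cell secretoglobin, had 292 and 909.6 CPM in type 2 cells, with a UMI in 71.6% and 80.8% of them and in 53.2% and 60.6% of endothelial cells.

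Below Chd9, the genes with higher KI levels had varied roles. Tinagl1, a matricellular protein, had 356 CPM in KI and 181 CPM in WT (log2 0.97 [0.86, 1.09]). Selenbp1, a selenium-binding methanethiol oxidase, had 931 and 531 CPM (log2 0.81 [0.74, 0.88]) at nearly equal shares of cells, 96.9% and 96.7%. Tsc22d3, the glucocorticoid-induced leucine zipper protein, had 133 and 75.9 CPM (log2 0.81), Atp7b, a copper-transporting ATPase, 91.5 and 52.1 CPM (log2 0.81), and Orai1, the pore of a calcium channel, 73.0 and 40.5 CPM (log2 0.85). Vldlr, a lipoprotein receptor, Tmod1, which caps actin filaments, and Traf1, an adaptor of tumour necrosis factor receptors, had log2 ratios of 0.89, 0.87 and 0.80. Samhd1, which breaks down deoxynucleotides, and Piwil4, a PIWI protein, had ratios of 1.00 and 0.98. The Samhd1 ratio was 0.28 and the Tmod1 ratio 0.37 under the stricter cell filter.

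Among the lower genes, Hist1h1c, a linker histone, had 43.6 CPM in KI and 112 CPM in WT (log2 −1.37 [−1.59, −1.15]). Rhou, an atypical small GTPase, had 23.3 and 54.4 CPM (log2 −1.22), and −0.69 after thinning. Por, the reductase that feeds electrons to cytochromes P450, had 254 and 424 CPM (log2 −0.74 [−0.84, −0.64]). Mfsd2a, a carrier of lysophosphatidylcholine, had 37.6 and 72.8 CPM (log2 −0.95). Tgfbi, Tbc1d8, Yrdc (a tRNA-modifying enzyme), Slc38a4 (an amino acid carrier) and Ptges (a prostaglandin E synthase) had ratios from −0.82 to −0.74. Srxn1, Osgin1 and Txnrd1 complete the 12 lowest genes and belong to redox defence.

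**Figure D3:**
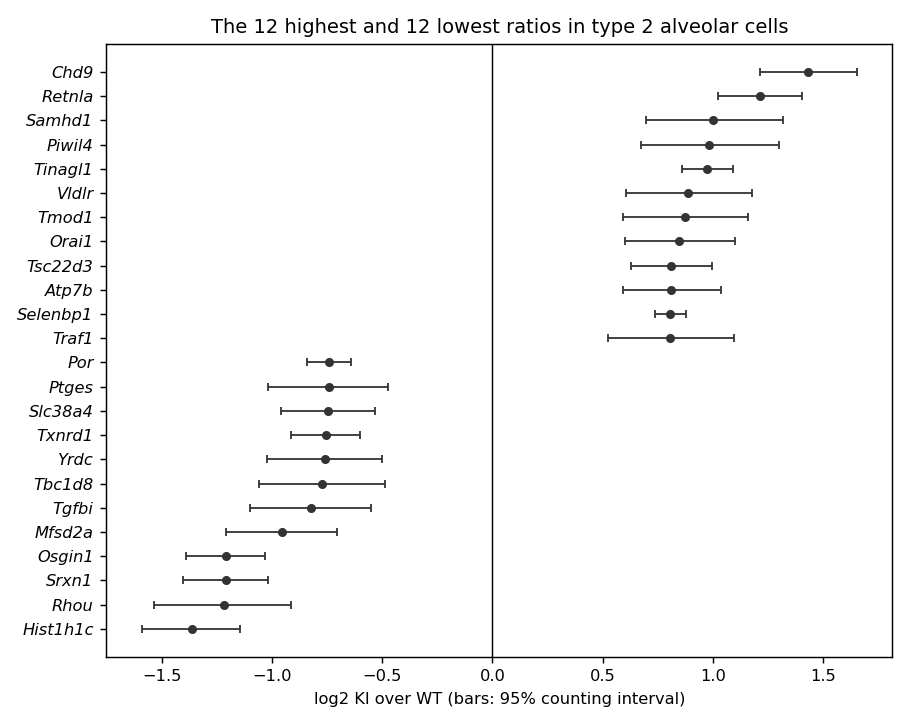
The 12 highest and 12 lowest log2 ratios of KI over WT in type 2 cells, with 95% counting intervals, after leaving out sex-linked, mitochondrial, ribosomal, haemoglobin and unnamed genes and genes at a free-RNA level. The ratios run from −1.37 for Hist1h1c to 1.43 for Chd9. No interval reaches 0, but the genes were picked by these same ratios, so this is not a separate result. The intervals hold no variation between animals.

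Of 20 gene lists, that of redox defence had the most genes lower in KI. The lists were written with earlier results of these data known, so this rank is not a separate result. It also rests on a raw count: receptors and niche signals had 5 of 29 genes lower. The medians of fatty acid synthesis (−0.16) and endoplasmic reticulum stress (−0.13) were lower than that of redox defence (−0.10). Counting genes with at least 20 UMIs, all 30 listed redox genes were measured, and 6 had a log2 ratio below −0.5, against 5.10% of all 10918 genes counted in this way. Only Gsto1 lay above 0.5, against 14.0% of all genes. These shares, and the median of 0.08 over all genes, are the background of every list count that follows. They take in scarce genes. Among the 2410 genes at 50 CPM and in 10% of cells, 3.15% lay above 0.5 and 2.32% below −0.5, with a median of 0.02. The share of all genes above 0 was not counted, so counts of list genes above or below 0 have no background here. The list's median was −0.10, with 22 genes below 0 and 8 above. Srxn1, sulfiredoxin, which repairs overoxidised peroxiredoxins, had 59.1 CPM in KI (332 UMIs) and 137 CPM in WT (662 UMIs), a log2 ratio of −1.21 [−1.41, −1.02]. Osgin1, an oxidant-induced growth inhibitor, had 68.2 CPM (383 UMIs) and 158 CPM (763 UMIs), a log2 ratio of −1.21 [−1.39, −1.03]. Txnrd1, thioredoxin reductase, had 101 and 171 CPM (log2 −0.76 [−0.91, −0.60]). Gclc, the catalytic subunit of the enzyme that starts glutathione synthesis, was far more abundant, with 1439.6 CPM in KI and 2257 CPM in WT (log2 −0.65 [−0.69, −0.61]). Nfe2l2 itself had 197 and 289 CPM (log2 −0.55 [−0.67, −0.44]), and Gpx3, a secreted glutathione peroxidase, 14.4 and 25.8 CPM (log2 −0.84). Gclm, the modifier subunit of the same enzyme as Gclc, had 60.2 and 81.0 CPM (log2 −0.43).

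Other classical members had ratios near 0, and Hmox1, Nqo1 and Keap1 were chosen after their values were seen. Hmox1, haem oxygenase, had 116 CPM in KI and 113 CPM in WT (log2 0.03 [−0.13, 0.20]). Nqo1, a quinone reductase, had 40 and 35 UMIs (log2 −0.03 [−0.71, 0.67]), too few to tell a level gene from a lower one. Keap1, the repressor of NRF2, had 57.3 and 57.5 CPM, and the ferritin chains Fth1 and Ftl1 had ratios of −0.08 and −0.00. Sod1, cytosolic superoxide dismutase, Gstm1, a glutathione transferase, and Gsto1 had positive ratios of 0.34, 0.46 and 1.16. The lower levels were thus those of some members of the list.

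The lower share of cells with a UMI held at equal depth. After each cell was thinned to 2000 UMIs, a Gclc UMI was found in 74.9% of KI and 90.4% of WT cells, Nfe2l2 in 29.9% and 41.8%, Txnrd1 in 18.2% and 31.1%, Osgin1 in 12.5% and 22.7% and Srxn1 in 9.97% and 19.1%. Unthinned, Srxn1 was found in 35.0% and 51.2%, and Osgin1 in 43.9% and 56.9%. In gated endothelial cells, unthinned, the Osgin1 shares were 2.08% and 3.84%, while Srxn1 was found in 32.9% and 30.3%.

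The same genes were read in other gated cells of both libraries. Gclc had log2 ratios of −0.25 in 3950 KI and 4759 WT endothelial cells, −0.99 in 1088 KI and 996 WT fibroblasts and −0.71 in 125 KI and 237 WT type 1 cells. Osgin1 had ratios of −1.65, −1.10 and −2.17, and Txnrd1 −0.42, −1.09 and −1.19 in the same order. Few gated endothelial cells held an Osgin1 UMI, and mixed barcodes are among these cells. The part of type 2 RNA in that ratio was not tested. Srxn1 was 0.14 [0.06, 0.23] in endothelial cells, against −1.08 in fibroblasts and −1.01 in type 1 cells. The medians of the whole list were −0.12, −0.16 and −0.33 in these kinds. They were −0.19 in 24 KI and 25 WT airway cells and 0.03 in 87 KI and 152 WT leukocytes. Differences between kinds of cell were not tested. The gated type 1 cells held 858 CPM of Scgb1a1 in KI and 55110 CPM in WT, so airway cells or their RNA are mixed into the WT gate. By contrast, Selenbp1, higher in KI type 2 cells, had ratios of −0.33, −0.12 and −0.10 in endothelial cells, fibroblasts and type 1 cells. Chd9, at 1.43 in type 2 cells, was above 0 in these 3 kinds too, at 0.54, 0.45 and 1.54.

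The bases before the start sites of 4 redox genes are shown. NRF2 acts through the antioxidant response element, whose core is TGACNNNGC, where N is any base, and these 4 were picked because their windows hold it or a related form. Of the 6 genes below −0.5, Srxn1, Osgin1 and Txnrd1 are shown, Nfe2l2 holds the core and is not shown, Gpx3 holds neither form and Gclc was not matched. Gclm, at −0.43, is not among the 6. Each is the 250 bases before a start listed by RefSeq on GRCm38.p6, 5' to 3' along the gene, with the motif in capitals. Txnrd1 has 3 listed starts, of which the second is shown, and the windows of Txnrd1 and Osgin1 lie within the annotated gene spans.
Srxn1, chr2:152105274-152105523, plus strand: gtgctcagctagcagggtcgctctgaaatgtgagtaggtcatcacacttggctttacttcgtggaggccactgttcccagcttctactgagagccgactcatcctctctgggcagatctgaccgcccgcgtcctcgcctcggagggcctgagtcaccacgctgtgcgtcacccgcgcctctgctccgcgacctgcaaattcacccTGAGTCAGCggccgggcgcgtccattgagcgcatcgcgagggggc
Osgin1, chr8:119436897-119437146, plus strand: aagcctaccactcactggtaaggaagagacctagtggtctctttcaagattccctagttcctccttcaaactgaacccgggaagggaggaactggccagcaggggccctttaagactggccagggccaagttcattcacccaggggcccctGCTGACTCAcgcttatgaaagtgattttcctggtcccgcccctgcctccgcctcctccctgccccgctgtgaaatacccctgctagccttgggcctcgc
Txnrd1, chr10:82858956-82859205, plus strand: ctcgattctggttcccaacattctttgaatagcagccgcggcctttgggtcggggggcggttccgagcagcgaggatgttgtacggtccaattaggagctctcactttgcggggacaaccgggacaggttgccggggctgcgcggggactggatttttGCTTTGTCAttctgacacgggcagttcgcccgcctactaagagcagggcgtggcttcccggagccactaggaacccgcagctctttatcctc
Gclm, chr3:122245307-122245556, plus strand: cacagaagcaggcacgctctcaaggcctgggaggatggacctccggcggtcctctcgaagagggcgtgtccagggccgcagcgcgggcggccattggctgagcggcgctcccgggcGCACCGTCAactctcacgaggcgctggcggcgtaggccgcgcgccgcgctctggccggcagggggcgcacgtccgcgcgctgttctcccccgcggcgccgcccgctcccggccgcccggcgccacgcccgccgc
The core begins 92 bases before the Txnrd1 start and 134 before the Gclm start, on the reverse strand in both. The windows of Srxn1 and Osgin1 hold TGAGTCAGC, a related form searched after these sequences had been seen, 45 and 99 bases before the start.

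Over both strands of all 32851 RefSeq windows, the core was found in 3338 (10.2%) and TGAGTCAGC in 114 (0.347%), with overlapping matches of both in 10. Of the 30 redox genes 24 matched the table, and the core was in 6 of them, Nfe2l2, Gclm, Txnrd1, Prdx1, Sod1 and Gsta3, while TGAGTCAGC was in Srxn1 and Osgin1. A gene with several starts has several windows, so counts of genes and the share of windows are not on 1 scale. Hmox1, Gclc, Gsr, Prdx6, Sod3 and Gsta4 were not matched. Genes with the core lay on both sides of 0, from −0.76 for Txnrd1 to 0.34 for Sod1.

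Surfactant transcripts were nearly equal in KI and WT. Sftpa1 had 27658 CPM in KI and 31457 CPM in WT (log2 −0.19), Sftpb 9206 and 10027 CPM (−0.12), Sftpc −0.10 and Sftpd −0.07 on the same log2 scale. The 4 summed to 220653 and 237732 CPM. Of 22 measured genes of lamellar bodies and surfactant processing, 3 lay above 0.5, a share near the 14.0% of all genes, and none below −0.5, with a median of 0.04. The 22 include Slc34a2 and Lamp3, which the choice of cells used. Abca3, the lipid pump of lamellar bodies, had 454 and 461 CPM, Ctsh, a protease, 2305 and 2238 CPM, and Npc2, a sterol carrier, 5713 and 5580 CPM. Lpcat1, which makes the main surfactant phospholipid, had 638 and 799 CPM (log2 −0.32 [−0.39, −0.26]). The 3 higher genes were of low level: Hps4 and Rab38, of lysosome-related organelle transport, with 47 and 18 UMIs and 80 and 34 UMIs, and Abca1, the cholesterol exporter, with 140 and 74 UMIs.

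Lipid synthesis genes lay on both sides of 0. Of 33 measured genes of fatty acid and phosphatidylcholine synthesis, 4 lay below −0.5 and 2 above 0.5, against 5.10% and 14.0% of all genes. Their median was −0.16, against 0.08 over all genes, and ran from −0.23 to 0.01 under other settings. Scd1, the desaturase that makes monounsaturated fatty acids, had 4372 CPM in KI and 6239 CPM in WT (log2 −0.51 [−0.54, −0.49]). Fabp5, a fatty acid binding protein, had 936 and 1392 CPM (log2 −0.57), and Slc25a1, the citrate carrier, 196 and 242 UMIs (−0.52). Fads2, the fourth, had 6 and 14 UMIs. Fasn, fatty acid synthase, was level at 593 and 627 CPM, and Lpin1 and Cept1, of phospholipid synthesis, were the 2 higher genes at 1.06 and 0.55. Of 25 cholesterol genes only Pmvk (719 and 1029 CPM, log2 −0.52) passed 0.5 in either direction, with a list median of −0.02. Fdps, farnesyl diphosphate synthase, had 107 and 127 CPM (log2 −0.25). Sqle, which makes squalene epoxide, had a ratio of 0.46.

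Secreted defence proteins showed small offsets around a median of −0.09. Of 20 measured genes 3 were below −0.5 and 2 above 0.5, against 5.10% and 14.0% of all genes. Lyz2 had 26040 CPM in KI and 28011 CPM in WT, Wfdc2, a secreted protease inhibitor-like protein, 3705 and 3882 CPM (log2 −0.07), and Lcn2, an iron-binding antibacterial protein, 3653 and 3890 CPM. Lyz1 and Lyz2 are near-identical copies whose counts the authors' counting could split. Lrg1, an acute-phase glycoprotein, had 713 and 1067 CPM (log2 −0.58 [−0.64, −0.52]), and Hp, haptoglobin, 630.4 and 911 CPM (log2 −0.53 [−0.60, −0.47]). Serping1, a complement inhibitor, had 12 and 31 UMIs, and the 2 higher genes Orm1 and Pglyrp1 had under 100 UMIs in each library.

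Of 15 measured chemokines and cytokines, 2 were above 0.5 and 2 below −0.5. The share above was near the 14.0% of all genes, and the median of 0.05 was near their 0.08. The higher ones were Cxcl10, an interferon-induced chemokine, with 433 KI and 254 WT UMIs (log2 0.55), and Cxcl3 with 55 and 19 (1.29). The lower ones were Cxcl1, a neutrophil attractant, with 76 and 113 UMIs (−0.79), and Tgfb2 with 7 and 13. Cxcl2 was level at 128 CPM in each. Il33, an alarmin of type 2 cells, had 203 and 182 CPM. Of 18 interferon-induced genes, 5 were above 0.5, against 14.0% of all genes, and 1 below −0.5, with a median of 0.18 and low counts. Bst2, a membrane tether of budding viruses, was the most abundant at 383 and 271 UMIs (log2 0.28), followed by Isg20, an exonuclease, at 159 and 160 UMIs. Stat2, a signal transducer of interferon receptors, had 65 and 33 UMIs (0.75 [0.14, 1.41]), and Xaf1 had 36 and 19 UMIs, with an interval that spanned 0 (0.69 [−0.13, 1.59]). Of 7 class II antigen presentation genes, 6 were above 0, among them Cd74 (5933 and 5565 CPM, log2 0.09), H2-Aa (1159 and 1079 CPM, 0.10) and Ciita, their regulator (64 and 34 UMIs, 0.69), and H2-DMb1 was at −0.23. Of 16 class I genes only Tap1, a peptide transporter, passed 0.5 (0.52). Tapbpl had a ratio of 0.45, H2-K1 of 0.08 and H2-D1 of 0.02, and H2 genes are near-identical copies that counting could split.

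Heat-shock genes had a median of 0.34, against 0.08 over all genes, with 17 of 18 above 0, a count without a background here. Of these, 4 passed 0.5, against 14.0% of all genes, and none lay below −0.5: Chordc1 at 0.69, Hspd1, a mitochondrial chaperonin, at 0.57, Dnajb1, a co-chaperone, at 0.56 and Bag3 at 0.52. Of the 18, 14, without Chordc1, were among the 2410 genes at 50 CPM and in 10% of cells, of which 3.15% lay above 0.5. Dnajb1 had 517 CPM in KI and 350 CPM in WT, and Hsp90aa1, an inducible chaperone, 2009 and 1623 CPM (log2 0.31). Hspa1a and Hspa1b, near-identical copies, had 2963 and 2477 CPM and 1799 and 1340 CPM. The Hspa1a ratio was uneven, at 0.18, 1.19, −0.07 and 0.33 in sub-clusters 1 to 4 described below, of which sub-cluster 3 is led by such genes. The list's median was 0.02 in endothelial cells, 0.09 in fibroblasts and −0.25 in type 1 cells. Immediate-early genes, which respond to dissociation as well as to injury, had a median of 0.21, with 20 of 22 above 0 and 1, Egr2, above 0.5. That count above 0 has no background either. Jun had 2946 and 2317 CPM (log2 0.35), Jund 1901 and 1648 CPM (log2 0.21), Zfp36, which destabilises messenger RNA, 415 and 314 CPM (log2 0.40) and Fos 1077 and 866 CPM (log2 0.31). Of 25 genes of endoplasmic reticulum stress, Xbp1, its transcription factor, was lower at 104 and 159 CPM (log2 −0.61 [−0.77, −0.45]), Trib3 and Chac1 were higher at 99 and 49 UMIs and 25 and 9 UMIs, and the median was −0.13. Hspa5, its main chaperone, had 512 and 601 CPM (log2 −0.23), and Herpud1 410 and 376 CPM (log2 0.12).

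Genes of injury and of the path to type 1 cells differed in direction. Of 30 measured, 4 lay above 0.5 and 2 below −0.5, shares near the 14.0% and 5.10% of all genes with at least 20 UMIs. Of the 30, 19 were among the 2410 genes at 50 CPM and in 10% of cells. Of those 2410, 3.15% lay above 0.5 and 2.32% below −0.5. The highest ratio was that of S100a6, with 294 CPM in KI and 127 CPM in WT (log2 1.22 [1.08, 1.35]). The median of 0.15 ran from −0.08 to 0.17 under other settings. Krt8, the keratin of transitional cells, had 653 CPM in KI and 737 CPM in WT (log2 −0.17), Sfn, a 14-3-3 protein, 248 and 355 CPM (log2 −0.52), and Sprr1a, a cornified envelope protein, 153 and 186 CPM (−0.28). Most Sprr1a UMIs, 750 of KI and 657 of WT, came from sub-cluster 4 described below, which held 48 KI and 70 WT cells. Within it the ratios were of the opposite sign, 0.50 [0.35, 0.66] for Sprr1a and 0.37 [0.28, 0.47] for Krt8, so no direction is given for either gene. Krt7, another keratin, had 261 and 165 CPM (log2 0.66 [0.54, 0.79]), Lgals3, galectin-3, 386 and 252 CPM (0.62 [0.52, 0.72]) and Trp53 144 and 86 UMIs (0.52). The Lgals3 ratio was 0.25 without the limits on other markers. A single KI cell held 113 of the 1466 Krt7 UMIs of KI, and sub-cluster 4 held 865 of them. The Krt7 ratio was 1.36 [1.19, 1.53] in sub-cluster 4 and 0.52 [0.21, 0.85] in sub-cluster 3. Its intervals spanned 0 in sub-clusters 1 (−0.21 [−0.74, 0.29]) and 2 (0.10 [−0.19, 0.39]). Cdkn1a, a cell cycle inhibitor, was abundant at 909 and 779 CPM (log2 0.22).

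Lineage transcription factors were close in level. Of 23 measured, among them Etv5, which the choice of cells used, 1 passed 0.5, Klf2 at 130 CPM in KI and 91.2 CPM in WT (log2 0.51). Nkx2-1, the lung lineage factor, had 293 and 233 CPM (log2 0.33 [0.22, 0.44]), Irx1 406 and 389 CPM (0.06), Foxa1 233 and 158 UMIs (0.34), Cebpa 239 and 206 CPM (0.21) and Cebpd 399 and 471 CPM (−0.24). Of 29 receptors and niche signals, 5 were below −0.5 and 2 above 0.5, against 5.10% and 14.0% of all genes, and the median was −0.03. The ratios furthest from 0 were of scarce transcripts, Spry4, an inhibitor of growth factor signals, with 18 and 35 UMIs (−1.16 [−2.08, −0.32]) and Fzd2, a Wnt receptor, with 53 and 23 UMIs (0.97 [0.26, 1.76]). Fgfr3 had 47 and 22 UMIs (0.86). The TGF-beta receptors Tgfbr1 and Tgfbr2 had ratios of −0.54 and −0.51, Tnfrsf1a, a tumour necrosis factor receptor, −0.52 [−0.73, −0.30], and Fgfr2, the receptor for niche fibroblast growth factors, 0.29. Of 19 ion and water transport genes only Aqp3 passed 0.5 in either direction, at 12 and 16 UMIs. Scnn1a and Atp1b1, which clear alveolar fluid, had ratios of 0.17 and 0.21, Aqp5, a water channel, of −0.24 and Nedd4l, a ubiquitin ligase of sodium channels, of 0.41. Of 23 glycolysis and hypoxia genes, only Pfkfb3 passed, at 27 and 43 UMIs. Gapdh, Ldha and Hk2, of glycolysis, had ratios of −0.08, −0.20 and −0.40. Cell cycle genes other than Ccnd1 (1048 and 806 UMIs, log2 0.16) were scarce. Pcna had 110 and 100 UMIs, Cdc20 57 and 22, and Mcm2 21 and 30. Mki67 had 26 KI and 6 WT UMIs, of which 15 were in 1 KI cell, and the list's median of 0.39 was −0.084 after thinning.

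The 2 libraries shared many of their most variable genes. After thinning to 2000 UMIs, 391 KI and 366 WT cells were compared over 898 genes by the ratio of variance to mean across cells, which is about 1 for counting noise alone. Its median was 1.12 in each library. The 50 most variable of the 898 genes in each library shared 41, 82% of each set, though all these cells passed 1 rule. The ratio was not adjusted for level, and abundant genes such as Sftpc and Malat1 were among the most variable. The part of shared abundance in the overlap was not tested. Lyz1 was among the most variable, at 35.7 in KI and 59.9 in WT, and the 39 KI and 37 WT cells with most Lyz1, 10% of each, held 88.7% and 88.5% of its UMIs. Sprr1a had 19.8 and 20.2, with 100% of its UMIs in 10% of cells of each library. By contrast, Napsa had 1.68 and 1.94, with 21.7% and 22.1% of its UMIs in the top 10% of cells. Gclc had 4.70 and 4.66, Hspa1a 8.50 and 10.2, Lcn2 7.83 and 9.26, Sfn 3.06 and 4.92 and Cd74 4.12 and 4.60. Malat1 and Sftpc were more spread in KI, at 64.6 and 33.0 for Malat1 and 44.3 and 29.9 for Sftpc. Scgb1a1 had 17.8 and 46.5, with up to 193 UMIs in a KI cell and 923 in a WT cell.

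**Figure D4:**
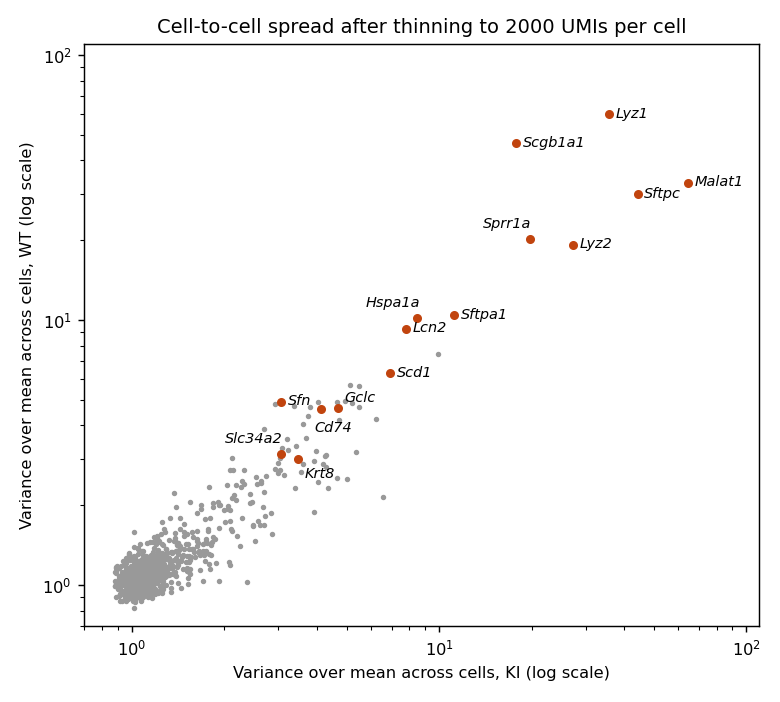
Ratio of variance to mean across type 2 cells for 898 genes, in KI (horizontal) against WT (vertical), both on log axes, after thinning each cell to 2000 UMIs; 15 genes are named. Most genes lie near 1 in both libraries, while Lyz1, Malat1, Sftpc, Sprr1a, Lyz2 and Scgb1a1 lie above 15 in both.

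The cells fell into 4 sub-clusters, each holding cells of both libraries. Their leading genes are what separates them and are not results, and since these genes include some that differ between libraries, sizes are not compared. Sub-cluster 1 held 53 KI and 93 WT cells and was led by Lrg1, Hdc and Retnla. Sub-cluster 2 held 170 and 126 cells, was led by Gstm1 and Bmp1 and had the lowest median depth, 11742 and 10497 UMIs. Sub-cluster 3 held 123 and 80 cells and was led by immediate-early and heat-shock genes, Cyr61, Fosb, Cxcl2, Atf3 and Dnajb1. Sub-cluster 4 held 48 and 70 cells and was led by Sprr1a, S100a14, F3, Krt19 and Tnfrsf12a. In it Krt8 had 2203 CPM in KI and 1703 CPM in WT, and Slc34a2 1538 and 1526 CPM, against 3397 to 3534 CPM in KI and 2990 to 3811 CPM in WT cells of the other sub-clusters. Slc34a2 is a gene of the choice of cells, so its level is a description and not a finding. Sftpc was at 150710 CPM or more in every sub-cluster and library.

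Some redox genes, and Por, which is not of that list, were read within each sub-cluster. Srxn1 had log2 ratios of −1.55, −1.34, −1.08 and −0.80 in sub-clusters 1 to 4, and Osgin1 lay between −1.24 and −0.75. Txnrd1 lay between −0.87 and −0.53, Gclc between −0.89 and −0.41 and Por between −1.05 and −0.67. All 4 intervals of each of these 5 genes lay below 0. Srxn1, Osgin1, Txnrd1 and Por were picked as among the 12 lowest ratios over these same cells, and Gclc was already lower in them. The sub-clusters split the same 2 libraries, so this is not a separate result. Gclm had ratios of −0.79, −0.27, −0.54 and −0.33, and its intervals in sub-clusters 2 [−0.68, 0.15] and 4 [−0.73, 0.06] spanned 0. Levels of Srxn1 were highest in sub-cluster 4, with 193 CPM in KI and 337 CPM in WT, and lowest in sub-cluster 1, with 20.9 and 62.8 CPM. Gclc too was highest in sub-cluster 4, at 2573 and 3418 CPM. Nfe2l2 was lower in sub-clusters 1 to 3 (−0.82, −0.83 and −0.54), while its interval in sub-cluster 4 spanned 0 (−0.14 [−0.42, 0.13]). Chd9 was higher in all 4, at 1.48, 1.53, 1.08 and 1.71, and Selenbp1 in all 4, at 0.68, 0.64, 0.80 and 0.92. Both were likewise picked by their ratios over these same cells. The Sftpc ratio ran from 0.06 in sub-cluster 1 to −0.26 in sub-cluster 4.

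**Figure D5:**
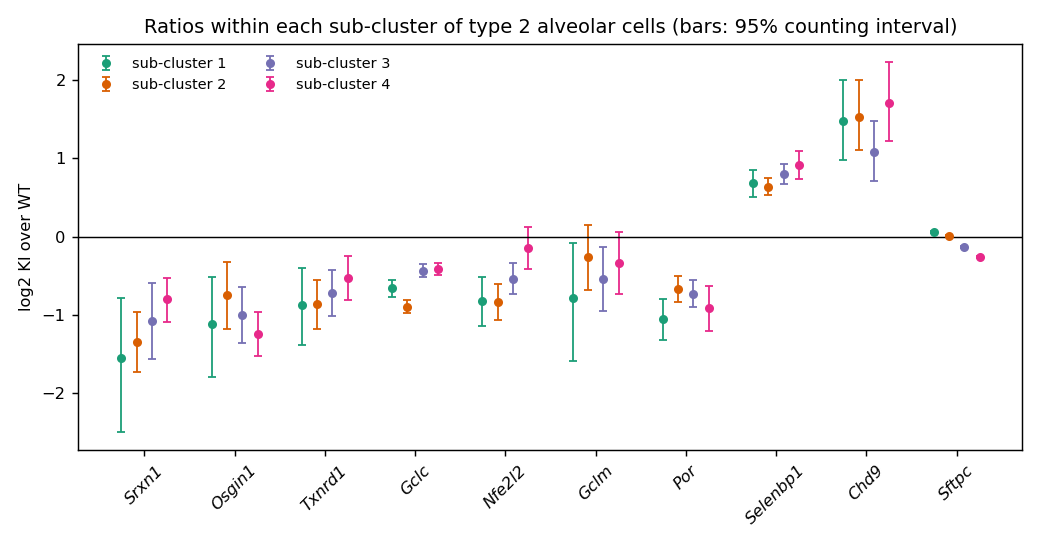
Log2 ratio of KI over WT of 10 genes within each of 4 sub-clusters of type 2 cells, with 95% counting intervals. Srxn1, Osgin1, Txnrd1, Gclc and Por lie below 0 in every sub-cluster, Selenbp1 and Chd9 lie above 0, and Sftpc stays between −0.26 and 0.06. The intervals of Gclm in sub-clusters 2 and 4 and of Nfe2l2 in sub-cluster 4 span 0. Srxn1, Osgin1, Txnrd1, Por, Selenbp1 and Chd9 were picked by their ratios over these same cells, so their signs here are not a separate result.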

How the data were processed

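The authors deposited 1 matrix of raw UMI counts per library. Per the submitters' processing notes, mm10 was the genome and R 3.5.3, Seurat 2.3.4 and Cell Ranger 2.0 were used, while the file headers give software version 3.0.2. The lowest barcode held 500 UMIs in each library, so shallow barcodes had already been removed. Groups follow the genotype labels. Gene positions are from GENCODE M21, in which 30934 of 31053 gene identifiers were found, and sequences from RefSeq on GRCm38.p6.

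Left out were 142 KI and 92 WT barcodes with under 200 genes and 1921 and 2055 with over 10% mitochondrial UMIs. Scrublet (scanpy 1.11.5) scored doublets in each library. Its automatic threshold marked 0 barcodes, so the highest-scored 0.8% per 1000 barcodes were taken, 665 KI and 877 WT, among them 7 (1.78%) and 11 (2.98%) type 2 cells. These were kept in the values given and left out as an alternative.

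UMIs were summed over the cells of each library and 0.5 counts added before log2 ratios of KI over WT, with exact conditional binomial 95% intervals. Shares carry Clopper-Pearson intervals (scipy 1.17.1). List counts use genes with at least 20 UMIs over both libraries and a log2 ratio past 0.5. The members of all lists and the type 2 cells were chosen with earlier results of these data known. Named genes are the 12 highest and 12 lowest ratios among genes at 50 CPM and in 10% of cells in either library, without sex-linked, mitochondrial, ribosomal, haemoglobin, receptor segment and unnamed genes and genes over 20 times lower than in another gated kind. From each list, the 2 to 4 genes with the most UMIs and the 2 furthest from 0 with at least 50 UMIs are named. Others, such as Hmox1, Nqo1, Keap1 and Fgfr3, were chosen after their values were seen. Sub-clusters come from 1500 variable genes per library, 20 principal components, 15 neighbours and Leiden resolution 0.5. The ratio script was tested on simulated data. Alternatives changed the gate, cell filter, doublets, scaling, cell weights, depth and gene filter.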

Additional observations from a re-analysis of the deposited data

Results flagged for a closer look

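Tgfbi, an extracellular matrix protein, had a log2 ratio of KI over WT of −0.82 in type 2 cells and of 0.50 in gated fibroblasts, so the ratios have opposite signs in the 2 kinds of cell. Retnla had a ratio of 1.21 in type 2 cells and of −1.87 in gated endothelial cells, again with opposite signs. Neither difference was tested, since each genotype has 1 library, and in type 2 cells 1 KI cell held 201 of the 849 Retnla UMIs.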

How the results depend on the processing

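The share of type 2 cells kept its log2 ratio between 0.28 and 0.45 under a sum of at least 2 or 5, no cell filter, at least 2000 UMIs, doublets left out and no limits on other markers, an alternative chosen after seeing the data. It was 0.59 with at least 500 genes and at most 5% mitochondrial UMIs. The count of genes over 2-fold higher, 3, was 5 with a sum of at least 2, with a sum of at least 5, with doublets left out and with the same sub-cluster weights. It was 13 under the stricter cell filter, 11 at 20 CPM, 1 without the limits on other markers and 20 after thinning to 2000 UMIs. The count of genes over 2-fold lower, 6, was 15 after thinning, which leaves fewer counts per gene, and 5 to 9 otherwise. The cause of the other shifts was not tested. After thinning the sign turned for Ncf1 (−0.75), Mki67 (−0.10) and the cell cycle median (−0.084). The neutrophil marker median, 0.45, was −0.19 with no cell filter and −0.58 under the stricter filter. Smaller values crossed 0 as well. Of 576 single-gene values under alternatives, 6 had the opposite sign, over 5 of 48 genes: Ncf1, Mki67, Etv5 (0.14, down to −0.03), Lcn2 (−0.09, up to 0.09) and Sftpb (−0.12, up to 0.01). Of 348 list medians, 39 had the opposite sign, over 18 of 29 lists, such as those of transition and injury (0.15, down to −0.08), chemokines (0.05, down to −0.13), cholesterol (−0.02, up to 0.15) and fatty acids (−0.16, up to 0.01). Ranges over all alternatives were −1.28 to −1.01 for Srxn1, −1.30 to −1.06 for Osgin1, −0.73 to −0.57 for Gclc, 1.24 to 1.61 for Chd9, 0.20 to 0.48 for the heat-shock median and −0.17 to −0.10 for the redox median. No paired analysis was possible because each genotype has 1 library. With 1 library per genotype, the library and the genotype cannot be told apart.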
